A study of Homo sapiens with 12 samples.

Results

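The integrated stress response genes described here are 36 genes: ATF4, other transcription factors and regulators of this response, and reported ATF4 targets for amino acid synthesis, amino acid transport and tRNA charging. They were found by symbol in the deposited count table, which names the tRNA synthetases by their older symbols (AARS for AARS1, for example). Of the 36, all were in the table of 23615 genes. A mean level of at least 0.5 CPM (counts per 1000000 of the library size after scaling with edgeR's TMM factors) over all libraries was met by 35. NUPR1 (mean 0.806 CPM) was the member just inside that limit, and GDF15 (mean 0.218 CPM) was outside it. The NUPR1 mean was 1.11 CPM in shControl and 0.498 CPM in shHuR (the 2 lines described next), so it was kept through its shControl level.

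The libraries came from HEK293T cells, a human embryonic kidney line, that carried a lentiviral short hairpin RNA against HuR (shHuR) or a control hairpin (shControl). HuR, the product of ELAVL1, binds mRNAs. Both lines had been selected with puromycin, and cells were left untreated or given 25 µM HNE alkyne or 225 µM H2O2 in growth medium for 18 h. HNE is the lipid-derived electrophile 4-hydroxynonenal, here in an alkyne form, and H2O2 is hydrogen peroxide. Each of the 6 combinations of line and treatment had 2 biological replicates, so 12 libraries in all. The question named by the series title is the role of HuR in the transcriptome under electrophiles and oxidants. The growth medium held added non-essential amino acids, several of which are products of the pathways below. Each line is the population selected with 1 hairpin, so line and hairpin cannot be told apart.

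In the integrated stress response, kinases that sense amino acid shortage, misfolded protein, heme lack or double-stranded RNA phosphorylate the translation factor eIF2. General translation falls, while the ATF4 mRNA is translated more because of short upstream reading frames in its leader. ATF4 then switches on genes for amino acid supply and tRNA charging, and, when stress persists, genes such as DDIT3, TRIB3 and CHAC1. ATF4 is therefore controlled in large part at translation, and the RNA counts used here do not measure its protein. Since total RNA of bulk cultures was counted, fewer cells of a kind and less RNA per cell cannot be told apart.

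Total counts per library were 24855946 to 29907258. ELAVL1, the target of the hairpin, had 86.0 to 99.4 CPM in the 6 shControl libraries and 69.3 to 74.5 CPM in the 6 shHuR libraries, which did not overlap. Its log2 fold change over all treatments was -0.38 (SE 0.0405, edgeR adjusted p = 2.60e-06); the level fell by 23.3%. Of the markers listed for HEK293T, NEFL (66.3 to 111 CPM), KRT18 (30.3 to 40.4 CPM), KRT8 and NEFM were present in every library, while PAX2 was at most 0.491 CPM. Of these 6 markers, 3 did not overlap between the lines (over all genes, 5.25% lay fully higher in shHuR and 6.84% fully lower). NEFL was 94.7 to 111 CPM in shControl and 66.3 to 82.4 in shHuR, KRT8 was 8.61 to 11.5 and 6.69 to 8.29 CPM, and NEFM, in the other direction, was 3.40 to 6.18 and 7.33 to 11.8 CPM. The sum of the 6 was 141 to 164 CPM in shControl and 118 to 138 CPM in shHuR. PAX2, LHX1 (0.534 to 1.22 CPM) and KRT18 overlapped between the lines. The part of the markers in the differences between the lines given below was not tested. Most markers of fibroblasts, endothelium, blood cells and liver were at or near 0, but COL1A1 (2.17 to 4.86 CPM) was counted in every library. The 2 HNE-treated shControl libraries stood further apart than the other pairs. The median absolute log2 difference between replicates over the members was 0.19 there and 0.05 to 0.10 in the other 5 groups.

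The DNA element through which ATF4 acts, with C/EBP proteins as partners, is called the C/EBP-ATF response element, and its core was searched for here as TGATGNAA on either strand. Promoter windows of 300 bases (250 before and 50 after a transcription start) came from RefSeq on GRCh38.p14. Of the 36 members, 32 had 1 or more windows, with PSPH, SHMT2, ALDH1L2 and NUPR1 the others. The core was present for 10 of the 32 (31.25%), against 4.46% of the 27305 symbols in the table. Counted by window, it was in 20.4% of 49 member windows and 3.62% of all 35116. These matches are shown as a sequence feature of some members that the choice by symbol did not use directly. Many members are known as ATF4 targets from work on such elements, so the choice is not independent of them. A match is a description of letters and not a measured binding site, and the absence of one refers to these windows alone. Each stretch below is written 5′ to 3′ on the strand that is transcribed, with the matched 8 bases in capitals; TGATG at the start marks a match in the direction of transcription and CATCA at the end a match on the other strand.
ASNS (chr7:97872458-97872487, minus strand): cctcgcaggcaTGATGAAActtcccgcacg
GARS (chr7:30594834-30594863, plus strand): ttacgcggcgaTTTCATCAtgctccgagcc
AARS (chr16:70289675-70289704, minus strand): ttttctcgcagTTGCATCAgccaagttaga
MARS (chr12:57488053-57488082, plus strand): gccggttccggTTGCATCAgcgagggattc
NARS (chr18:57621804-57621833, minus strand): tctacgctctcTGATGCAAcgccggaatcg
SLC7A1 (chr13:29595663-29595692, minus strand): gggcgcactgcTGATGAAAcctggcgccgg
SLC3A2 (chr11:62881725-62881748, plus strand): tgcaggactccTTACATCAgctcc
CHAC1 (chr15:40953251-40953280, plus strand): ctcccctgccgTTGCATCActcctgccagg
CEBPG (chr19:33374060-33374089, plus strand): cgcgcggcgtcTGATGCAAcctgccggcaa
ATF3 (chr1:212565205-212565234, plus strand): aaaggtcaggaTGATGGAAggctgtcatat

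The first matched base lay 68 bases before the start in ASNS, 33 in GARS, 187 in AARS, 4 in MARS, 209 in CHAC1, 42 in CEBPG and 191 in ATF3. In SLC7A1, NARS and SLC3A2 it lay at base 8, 15 and 38 of the transcribed side. So 4 of the 7 synthetases listed carried the core, as did 2 of the 4 amino acid transporter genes. In the comparison of the lines described next, 2 of the 10 genes with the core differed, CEBPG upward and ATF3 downward, where 29.9% of all genes differed (14.1% higher and 15.9% lower). Of the 22 matched genes without the core, 5 were higher and 7 lower in shHuR, 9 did not pass and GDF15 was not tested.

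Between genes, levels can be compared per length, for which the deposited FPKM values (fragments per kilobase of transcript, scaled to library size) serve. ATF4 itself was the most abundant member, with a mean of 448 FPKM over the 12 libraries and a range of 413 to 483. The serine and one-carbon enzymes PHGDH (mean 232 FPKM) and MTHFD2 (181 FPKM) came next, followed by the synthetase EPRS (172 FPKM) and CBS (151 FPKM). ASNS stood at a mean of 108 FPKM, and the 7 synthetases lay between 45.5 (WARS) and 172 FPKM (EPRS). The late regulators were far lower, with means of 9.33 FPKM for DDIT3, 7.69 for TRIB3 and 2.40 for CHAC1. NUPR1 (1.20 FPKM) and GDF15 (0.214 FPKM) were lowest. Some supply genes were also low: ALDH1L2 (8.30 FPKM) lay within the range of these late regulators, and CTH (11.2 FPKM) and PCK2 (13.8 FPKM) lay above it.

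**Figure D1:**
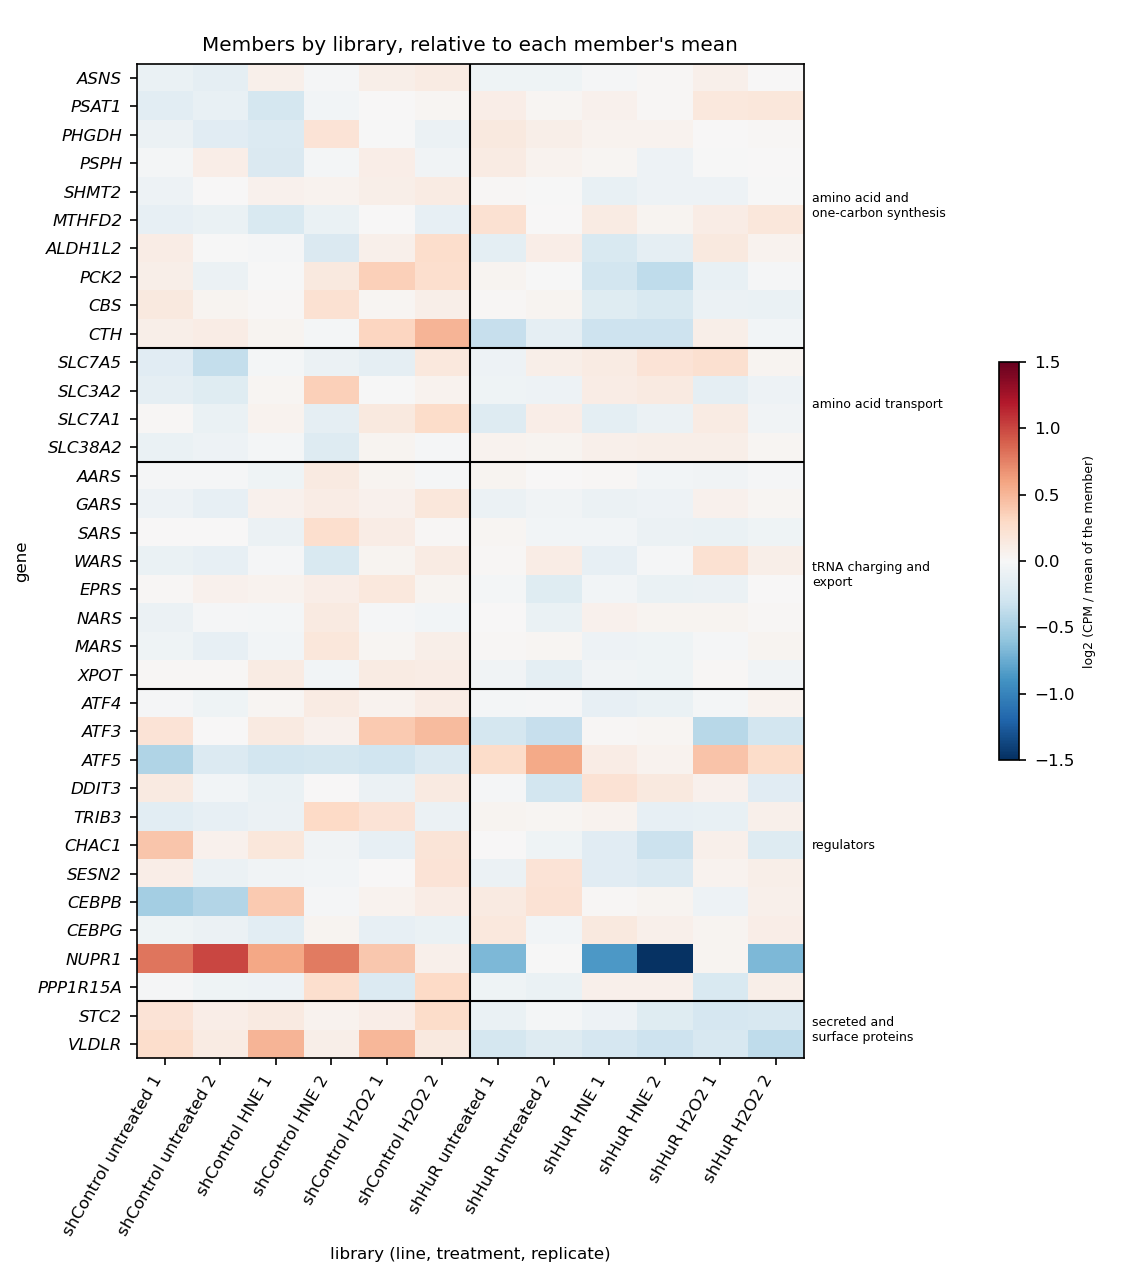
Level of 35 members (rows, grouped by role) in the 12 libraries (columns), as log2 of CPM over the member's mean; red is above and blue below the mean. Most cells are pale. The strongest colours are those of NUPR1, low in shHuR HNE replicate 2, while ATF5, CEBPB, VLDLR, CTH and ATF3 are weaker.

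The comparison of the lines asks which of these transcripts differ with the knockdown. Over all treatments, 15 of 35 members (42.9%) differed between the lines by edgeR's quasi-likelihood test at an adjusted p under 0.05, where 29.9% of all 16005 genes tested did. Of the 15, 6 were higher in shHuR (ATF5, MTHFD2, SLC7A5, PSAT1, CEBPG and SLC38A2) and 9 were lower (NUPR1, VLDLR, ATF3, CTH, STC2, PCK2, CBS, EPRS and XPOT). Higher calls made up 14.1% and lower calls 15.9% of all genes. At an unadjusted p under 0.05 there were 17 members, against 40.9% of all genes. The members' median log2 fold change was -0.04 against -0.002 for all genes. Their median size without regard to sign was 0.112, under the 0.151 of all genes. The members thus did not move as a block: calls in both directions occurred among the synthesis enzymes and the regulators, those among the transporters were higher, and those among tRNA charging genes and the 2 tested secreted and surface proteins were lower.

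**Figure D2:**
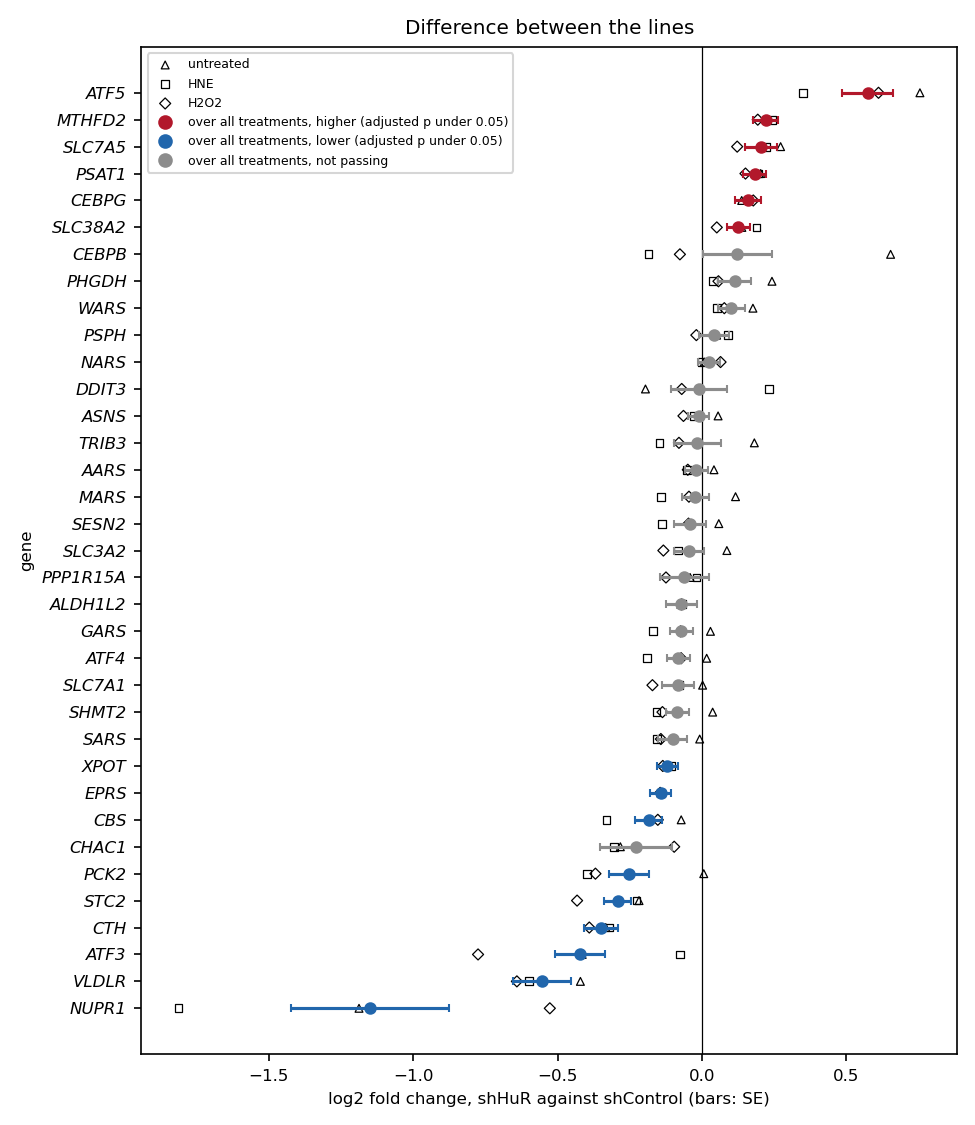
Log2 fold change of each member (rows) in shHuR against shControl over all treatments (filled circles, bars are SE) and within each treatment (open symbols). ATF5 lies highest at 0.57 and NUPR1 lowest at -1.15, and the open symbols of CEBPB and ATF3 are spread widest apart among the better-counted genes.

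Among the 10 synthesis enzymes, 2 of the serine and one-carbon branch were higher in shHuR, while both transsulfuration enzymes and PCK2 were lower. PSAT1, which makes phosphoserine for serine synthesis, was 218 ± 16.4 against 247 ± 10.9 CPM (SD, n = 6 each, shControl first), or 0.18 on the log2 scale (SE 0.0406, edgeR adjusted p = 0.00267). MTHFD2, the mitochondrial folate enzyme, was 340.5 ± 18.0 against 397 ± 22.3 CPM (SD, n = 6 each), a log2 fold change of 0.22 (edgeR adjusted p = 0.00102). PHGDH, the first enzyme of serine synthesis, had a value of 0.11 (adjusted p = 0.146). It passed when no filter on low counts was used, and also once the second HNE-treated shControl library (493 CPM against 370.4 in the first) was left out. The log2 fold change was then 0.18. PSPH (0.04), SHMT2 (-0.09) and ALDH1L2 (-0.07), which complete serine synthesis or carry serine's one-carbon unit in mitochondria, did not pass.

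CTH, which releases cysteine from cystathionine, was 23.3 and 23.6 CPM in untreated shControl cells, 22.6 and 21.4 with HNE, and 27.3 and 31.2 with H2O2. In shHuR it was 17.3 and 20.0 CPM untreated, 17.6 and 17.6 with HNE, and 23.3 and 21.3 with H2O2. Within each treatment both shHuR libraries lay below both shControl libraries, and in both lines the H2O2 libraries were the highest. The log2 fold change over all treatments was -0.35 (SE 0.0585, edgeR adjusted p = 0.000251).

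CBS, which makes cystathionine from homocysteine and serine, was 399 and 369 CPM in untreated shControl cells, 363 and 419 with HNE, and 366 and 382 with H2O2. The shHuR line had 362 and 368 CPM untreated, 317 and 305 with HNE, and 337 and 335 with H2O2. Of the shHuR libraries only untreated replicate 2 reached into the shControl range, and the others lay below it. The log2 fold change over all treatments was -0.19 (SE 0.0474, edgeR adjusted p = 0.00689). RefSeq lists a second gene with CBS among its synonyms (CBSL), a near-identical copy. The deposited counts were made on GRCh37, and whether this copy affects the CBS count there was not tested.

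PCK2, the mitochondrial enzyme that makes phosphoenolpyruvate, was 29.6 and 26.2 CPM in untreated shControl cells, 27.6 and 30.7 with HNE, and 35.5 and 33.2 with H2O2. The shHuR libraries held 28.5 and 27.6 CPM untreated, 23.0 and 21.3 with HNE, and 25.7 and 27.5 with H2O2. The lines overlapped when untreated and were apart with either agent. Over all treatments its log2 fold change was -0.25 (SE 0.0698, edgeR adjusted p = 0.0108). ASNS, which makes asparagine and is a much used reporter of ATF4 activity, did not pass, at -0.01 on the log2 scale (SE 0.0365, edgeR adjusted p = 0.841) and an interval of 2 SE from -0.085 to 0.061. Its values were 188, 183, 212, 199.6, 213 and 219 CPM in shControl (untreated, HNE and H2O2 in turn, replicate 1 before 2) and 193, 193, 199.6, 204, 212 and 202 CPM in shHuR. The lines overlapped, and the lowest libraries in each were the untreated ones.

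Among the 4 amino acid transporter genes, SLC7A5, the light chain of the large neutral amino acid transporter, was 159.6 ± 19.0 CPM in shControl and 183 ± 14.2 CPM in shHuR (SD, n = 6 each). Its log2 fold change was 0.20 (SE 0.0561, edgeR adjusted p = 0.0107). The table also holds the pseudogenes SLC7A5P1 and SLC7A5P2, so its count is uncertain. SLC38A2, a sodium-coupled transporter of small neutral amino acids, was 247 ± 13.4 against 269.6 ± 4.21 CPM (SD, n = 6 each), a log2 fold change of 0.13 (edgeR adjusted p = 0.0214). That call was lost without replicate 1 of the untreated shControl group (0.12) or either HNE-treated shHuR library (0.12 in each case). SLC3A2, the heavy chain that pairs with SLC7A5, had -0.04, and SLC7A1, a transporter of cationic amino acids, had -0.08; neither passed.

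Among the 7 synthetases and the tRNA exporter XPOT, 2 of 8 (25.0%) passed, both lower, a share below the 29.9% of all genes. EPRS, which charges tRNAs for glutamate and proline, was 890.4 ± 32.1 CPM in shControl and 806 ± 35.2 CPM in shHuR (SD, n = 6 each), with all 6 shHuR libraries below all 6 shControl ones. Such a full separation downward was found for 4 of 35 members and 6.84% of all genes. Its log2 fold change was -0.14 (SE 0.0372, edgeR adjusted p = 0.00754). XPOT, which carries tRNAs out of the nucleus, had -0.12 (edgeR adjusted p = 0.0211). The XPOT call was lost under scaling by library size alone (-0.10), without HNE-treated shControl replicate 1 (-0.10) and without H2O2-treated shHuR replicate 2 (-0.11). AARS, GARS, SARS, WARS, NARS and MARS ranged from -0.10 (SARS) to 0.10 (WARS), and none passed.

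The regulators held both the highest and the lowest fold change among the members. ATF4 had 564 and 544 CPM in untreated shControl cells, 584 and 624 with HNE, and 594 and 617 with H2O2. In shHuR it had 558 and 563 CPM untreated, 525 and 533 with HNE, and 560.2 and 592 with H2O2. Its libraries spanned a ratio of only 1.19 from highest to lowest, and the lines overlapped. The log2 fold change over all treatments was -0.08 (SE 0.0395, edgeR adjusted p = 0.125).

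ATF5, an ATF4 relative also translated under stress, was 6.32 and 7.44 CPM in untreated shControl cells, 7.10 and 7.20 with HNE, and 6.98 and 7.45 with H2O2. In shHuR it was 10.5 and 12.7 CPM untreated, 9.28 and 8.93 with HNE, and 11.6 and 10.4 with H2O2. All 6 shHuR libraries lay above all 6 shControl libraries, a separation upward seen in 1 of 35 members and 5.25% of all genes. The log2 fold change was 0.57 (SE 0.0892, edgeR adjusted p = 0.000125), or 1.49-fold, and held in all 21 alternative fits, from 0.46 to 0.61.

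ATF3, a stress-induced factor that is often a repressor, was 33.7 and 29.3 CPM in untreated shControl cells, 31.9 and 30.5 with HNE, and 38.2 and 40.4 with H2O2. The shHuR levels were 24.3 and 23.0 CPM untreated, 29.5 and 29.7 with HNE, and 21.8 and 24.1 with H2O2. The gap between the lines was widest with H2O2, where shControl was at its highest, and narrow with HNE. Over all treatments the log2 fold change was -0.42 (SE 0.0869, edgeR adjusted p = 0.00144).

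NUPR1, a small chromatin-associated stress protein, was 1.25 and 1.43 CPM in untreated shControl cells, 1.07 and 1.23 with HNE, and 0.948 and 0.755 with H2O2. In the shHuR line NUPR1 was 0.448 and 0.713 CPM untreated, 0.393 and 0.255 with HNE, and 0.734 and 0.448 with H2O2. All shHuR libraries lay below all shControl libraries, though the H2O2 values nearly met. NUPR1 met the limit of 0.5 CPM through its shControl level, since its shHuR mean was 0.498 CPM. The log2 fold change was -1.15 (SE 0.274, edgeR adjusted p = 0.00427), but only 7 to 40 counts per library lay behind it. On the log2(FPKM + 1) scale, which understates changes of low genes, it was -0.61. CEBPG, a dimer partner of ATF4, was 104 ± 4.97 against 116 ± 5.82 CPM (SD, n = 6 each), with a log2 fold change of 0.16 (edgeR adjusted p = 0.0123).

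None of the late regulators passed the test between the lines. DDIT3, which encodes the factor CHOP, was 8.23, 7.34, 7.00, 7.52, 7.05 and 8.24 CPM in shControl (untreated, HNE and H2O2 in turn) and 7.41, 6.21, 8.73, 8.31, 7.89 and 6.69 CPM in shHuR. The ranges overlapped, and the value of -0.01 on the log2 scale (SE 0.0957, edgeR adjusted p = 0.948) had an interval of 2 SE from -0.202 to 0.181. TRIB3, a pseudokinase that binds ATF4, was 15.7, 16.2, 16.5, 21.6, 20.2 and 16.6 CPM in shControl and 18.2, 18.0, 18.2, 16.1, 16.3 and 18.6 CPM in shHuR. Here too the ranges overlapped, at -0.02 on the log2 scale (SE 0.0824, edgeR adjusted p = 0.909).

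CHAC1, which degrades glutathione, was 4.37, 3.44, 3.67, 3.15, 3.00 and 3.74 CPM in shControl and 3.30, 3.12, 2.91, 2.63, 3.45 and 2.86 CPM in shHuR. Of the shHuR values 3 lay below the shControl range and 3 within it, and the log2 fold change was -0.23 (SE 0.124, edgeR adjusted p = 0.179). SESN2, a stress-induced inhibitor of mTORC1 (-0.04), PPP1R15A, which guides the phosphatase that reverses eIF2 phosphorylation (-0.06), and CEBPB, a C/EBP factor (0.12), did not pass either.

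**Figure D3:**
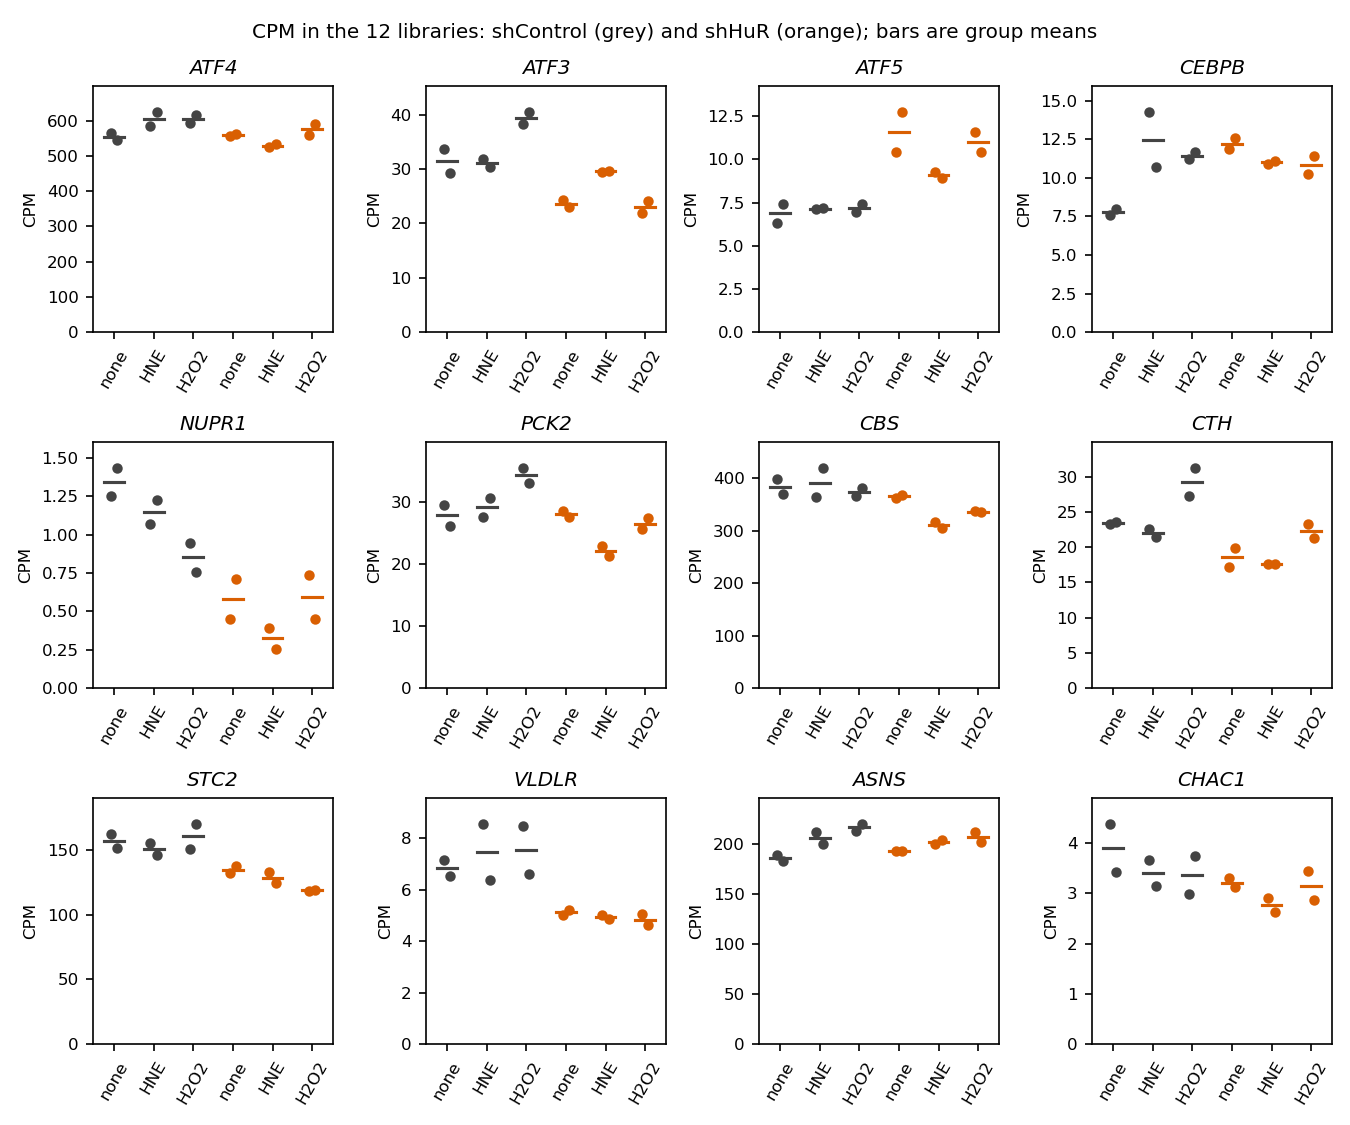
CPM of 12 members in each library (points), with the mean of each pair (bars), for shControl (grey) and shHuR (orange); every axis starts at 0. ATF5, NUPR1, STC2 and VLDLR separate the lines over all 12 libraries, and ATF3, CBS and CTH do so only within each treatment. Untreated shControl cells are the low group for CEBPB.

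Of the 3 genes for secreted and surface proteins, STC2 and VLDLR were tested and both were lower in shHuR. STC2, a secreted glycoprotein, was 163 and 151 CPM in untreated shControl cells, 155 and 146 with HNE, and 151 and 169.9 with H2O2. In shHuR it was 132 and 138 CPM untreated, 133 and 124 with HNE, and 119 and 119 with H2O2. VLDLR, a lipoprotein receptor, was 7.17 and 6.55 CPM in untreated shControl cells, 8.54 and 6.38 with HNE, and 8.49 and 6.62 with H2O2. Its shHuR levels were 5.01 and 5.23 CPM untreated, 5.03 and 4.85 with HNE, and 5.06 and 4.62 with H2O2. For both genes all 6 shHuR libraries lay below all 6 shControl libraries. The log2 fold changes were -0.29 (SE 0.0472, edgeR adjusted p = 0.000176) for STC2 and -0.55 (SE 0.102, edgeR adjusted p = 0.000555) for VLDLR. GDF15, a secreted stress cytokine, had 3 to 13 counts per library (0.197 ± 0.0838 CPM in shControl, 0.239 ± 0.135 CPM in shHuR; SD, n = 6 each) and was not tested.

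Within single treatments fewer members passed, with 2 libraries a side. In untreated cells 3 of 35 (8.57%) differed, close to the 7.98% of all genes, with 2 higher (3.5% of all genes) and 1 lower (4.48%): ATF5 (log2 fold change 0.75), CEBPB (0.65) and ATF3 (-0.42), with edgeR adjusted p from 0.00651 to 0.0188. Both shHuR libraries lay above both shControl libraries in 14 members (27.3% of all genes) and below them in 9 (28.6%). The log2 fold change was positive for 22 members and 49.4% of all genes. The 3 calls rested on single libraries. Without replicate 1 of the untreated shControl group or replicate 2 of the untreated shHuR group none of the 3 passed. ATF5 was then 0.64 and 0.60, CEBPB 0.62 and 0.61, and ATF3 -0.31 and -0.37. CEBPB also lost its call without replicate 2 of the untreated shControl group (0.69), and ATF3 without replicate 1 of the untreated shHuR group (-0.45).

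With HNE 3 of 35 members (8.57%, against 8.27% of all genes) differed, 0 higher (3.24% of all genes) and 3 lower (5.04%): CBS (-0.33, adjusted p = 0.0141), PCK2 (-0.40, adjusted p = 0.0247) and NUPR1 (-1.81, adjusted p = 0.0298). In 15 members both shHuR libraries were below both shControl ones, against 26.8% of all genes, and in 7 both were above (25.1%). All 3 lost their calls without either HNE-treated shHuR library. The values without replicate 1 and replicate 2 were -0.36 and -0.30 for CBS, -0.45 and -0.34 for PCK2, and -2.14 and -1.53 for NUPR1. They also lost them without HNE-treated shControl replicate 2, at -0.23, -0.32 and -1.71. NUPR1 did so too without replicate 2 of the untreated shControl group (-1.81). When HNE-treated shControl replicate 1 was left out, 8 members passed. In a fit to the 4 compared libraries alone none did. ATF4 itself was -0.19 (SE 0.0610, edgeR adjusted p = 0.0688) with HNE, both shHuR libraries being below both shControl libraries. It passed with DESeq2 and without HNE-treated shControl replicate 1.

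With H2O2 6 of 35 members (17.1%, against 7.19% of all genes) differed: ATF5 was higher (0.61), and ATF3 (-0.78), VLDLR (-0.64), STC2 (-0.43), CTH (-0.39) and PCK2 (-0.37) were lower. Higher calls were 2.52% and lower calls 4.67% of all genes. Both shHuR libraries lay below both shControl libraries in 17 members (26.5% of all genes) and above them in 6 (25.6%). A positive log2 fold change was found for 9 members and 49.7% of all genes. ATF3 had the smallest adjusted p (0.000378). Both ATF3 and STC2 (adjusted p = 0.00333) kept their calls in all 22 alternative fits, with ATF3 from -0.85 to -0.71 and STC2 from -0.51 to -0.34. The others depended on single libraries. Without replicate 1 of the H2O2-treated shControl group, or without either H2O2-treated shHuR library, only 2 members passed. ATF5 was then 0.57, 0.53 and 0.69, and PCK2 -0.32, -0.32 and -0.42. PCK2 also missed when either HNE-treated shHuR library was left out (-0.37 in both). CTH kept its call only without a library of the HNE-treated shControl or the untreated shHuR group, and ran from -0.48 to -0.29. VLDLR kept it only without a library of the HNE-treated shControl group or replicate 2 of the H2O2-treated shControl group, and ran from -0.81 to -0.45. In these treatments NUPR1 was -0.53 with H2O2 and ATF3 -0.08 with HNE, neither passing.

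Against untreated cells, no member passed the test for HNE. In edgeR 0 of 35 did so with both lines together, where 0.247% of all 15780 genes did. At an unadjusted p under 0.05 there were 3 members, against 12.3% of all genes, 2 of them positive (5.96% of all genes) and 1 negative (6.34%). No member had all 4 HNE libraries below all 4 untreated ones (2.35% of all genes), and 20 had a positive value (50.1%). DESeq2 called 1, SLC3A2. SLC3A2 was 162 and 156 CPM in untreated shControl cells and 181 and 226 with HNE, and in shHuR it was 169 and 168 untreated and 190.5 and 194 with HNE. All 4 HNE libraries were above all 4 untreated ones, as in 2.22% of all genes, and the log2 fold change was 0.27 (SE 0.0686, edgeR adjusted p = 0.150), from 0.19 to 0.32 over the alternatives. The other 2 members at an unadjusted p under 0.05 were SLC7A5 (0.18, adjusted p = 0.241) and ALDH1L2 (-0.17, adjusted p = 0.370). Of the tested members, ASNS (0.11, edgeR adjusted p = 0.410) also had all 4 HNE libraries above all 4 untreated ones.

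ATF4 had 0.02, DDIT3 0.11, CHAC1 -0.20, TRIB3 0.09 and ASNS 0.11 with HNE, with both lines together. The median over the members was 0.01. Within the lines, 0 of 35 passed in edgeR for shControl (0.0187% of all genes) and 0 of 35 for shHuR (0.075%), with 5 and 6 members at an unadjusted p under 0.05 (11.7% and 8.95% of all genes). The 5 in shControl were all positive (6.04% of all genes). Of the 6 in shHuR, 2 were positive (4.17%) and 4 negative (4.78%). Both HNE libraries lay above both untreated ones in 9 members in shControl (19.3% of all genes) and below them in 3 (20.3%). For shHuR these counts were 8 (21.6%) and 14 (22.9%). Positive values were found for 22 members in shControl (50.1% of all genes) and 11 in shHuR (48.8%). In shControl DESeq2 called 2, SLC3A2 and CEBPB, and in shHuR it called 0. In shControl CEBPB was 7.57 and 7.98 CPM untreated and 14.2 and 10.7 CPM with HNE, a log2 fold change of 0.69 (edgeR adjusted p = 0.161).

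For H2O2 against untreated, 0 of 35 members passed in edgeR, and 0% of all 15801 genes, and DESeq2 called 0 members as well. At an unadjusted p under 0.05 there were 8 members, all with positive values, where 5.45% of all genes were under that level. They were CTH (0.29), SLC7A5 (0.21), SLC7A1 (0.17), GARS (0.17), ASNS (0.16), WARS (0.14), PSAT1 (0.12) and XPOT (0.09), all with an edgeR adjusted p of 0.900. They belong to the supply, transport and tRNA charging groups, and no regulator was among them. ASNS and GARS had all 4 H2O2 libraries above all 4 untreated ones, as did 0.709% of all genes. The HNE and H2O2 comparisons use the same untreated libraries.

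In shControl 29 of 35 members had a positive log2 fold change with H2O2, against 50.7% of all genes, with a median of 0.11 against 0.002 for all genes. In 20 of 35 both H2O2 libraries were above both untreated ones, against 16.2% of all genes, and in 2 both were below (16.3%). In edgeR 0 of 35 passed (0% of all genes), and 9 had an unadjusted p under 0.05, all positive, where 1.96% of all genes had a positive value under that level. The 9 were CEBPB (0.56), ATF3 (0.32), CTH (0.32), PCK2 (0.30), SLC7A5 (0.28), SLC7A1 (0.25), ASNS (0.22), GARS (0.22) and WARS (0.19). Each was measured against the same 2 untreated libraries.

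In shHuR 19 of 35 members had a positive value with H2O2, the median was 0.007, and 6 had both H2O2 libraries above both untreated ones (16.4% of all genes), while 9 had both below (17.8%). In edgeR 0 of 35 passed there (0% of all genes), with CTH (0.26) and STC2 (-0.18) at an unadjusted p under 0.05, against 3.37% of all genes. CTH was at this level in both lines, and the interaction for it was -0.06 (edgeR adjusted p = 1.00).

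**Figure D4:**
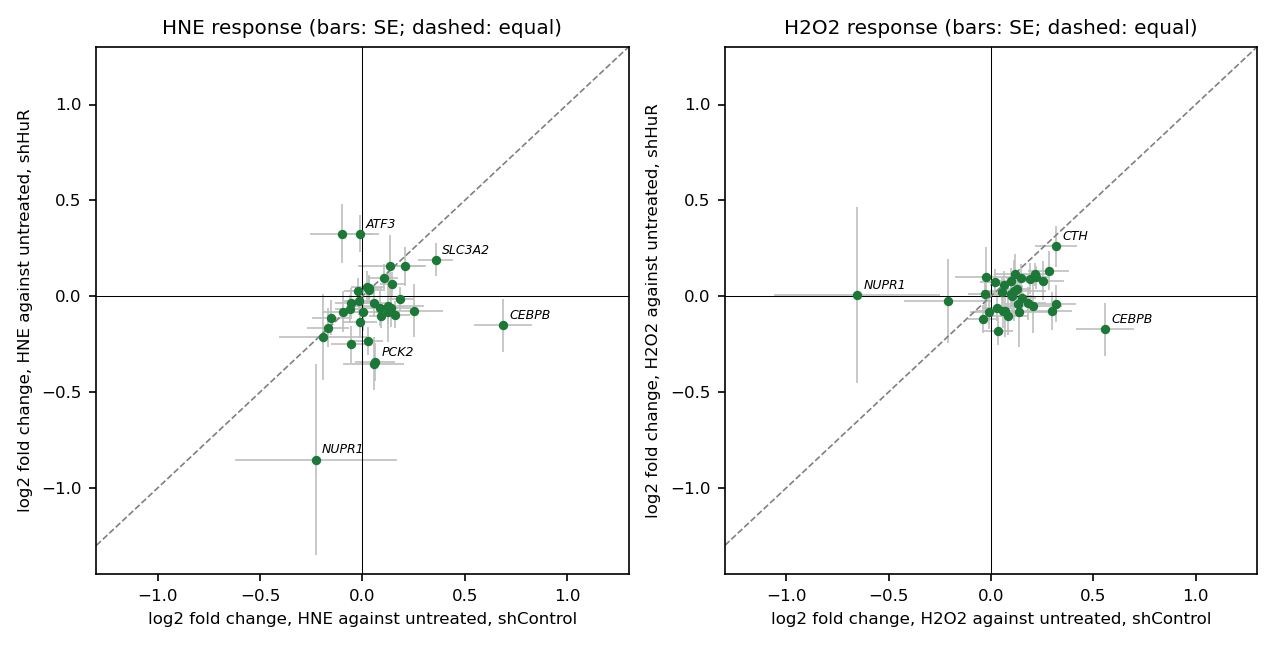
Log2 fold change with HNE (left) and H2O2 (right) against untreated cells in shControl (x axis) and shHuR (y axis) for 35 members, with SE bars and the line of equal values. Points with H2O2 lie mostly to the right of 0 and near 0 on the y axis, and CEBPB lies far to the right in both panels.

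Interaction terms tested whether the response differed between the lines. For HNE 0 of 35 members passed (0% of all genes), and 8 had an unadjusted p under 0.05, against 6.73% of all genes. DESeq2 called 0 members. For H2O2 0 of 35 passed (0% of all genes), with 3 at that level, against 3.62%, and DESeq2 called 0. Of the interaction values, 24 of 35 for HNE and 29 of 35 for H2O2 were negative, meaning a smaller or more negative response in shHuR, while 49.5% and 49.6% of all genes were positive. The interactions and the responses within shControl are built from the same untreated shControl libraries.

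CEBPB had the smallest unadjusted p in both interactions, and its values are given because of that. It was 7.57 and 7.98 CPM in untreated shControl cells, 14.2 and 10.7 with HNE, and 11.2 and 11.7 with H2O2. In shHuR it was 11.9 and 12.6 CPM untreated, 10.9 and 11.1 with HNE, and 10.3 and 11.4 with H2O2. Untreated shControl cells were the only low group, and the libraries of the other 5 groups lay between 10.3 and 14.2 CPM. The interaction was -0.84 for HNE (SE 0.199, unadjusted p = 0.000891, edgeR adjusted p = 0.712) and -0.73 for H2O2 (SE 0.199, unadjusted p = 0.00261, edgeR adjusted p = 1.00). PCK2 had -0.40 for HNE and -0.38 for H2O2, and ATF3 had 0.34 and -0.36, none passing (edgeR adjusted p of 0.712 for HNE and 1.00 for H2O2). ATF4 had -0.21 for HNE (unadjusted p = 0.0307, edgeR adjusted p = 0.712).

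Other genes of the pathway were taken from 3 further lists. Of 16 genes for the eIF2 kinases, eIF2, its exchange factor eIF2B and their regulators, 4 differed between the lines over all treatments (edgeR, 1 higher and 3 lower). That is 25.0%, below the 29.9% of all genes (14.1% higher and 15.9% lower). EIF2AK2, the kinase activated by double-stranded RNA, was 69.7 ± 5.04 CPM in shControl and 81.4 ± 3.73 CPM in shHuR (SD, n = 6 each), with a log2 fold change of 0.22. It also passed with HNE (0.32) and with H2O2 (0.31). EIF2S3, a subunit of eIF2, was lower (-0.28), as was IMPACT (-0.37), an inhibitor of the amino acid sensing kinase EIF2AK4. For both, all 6 shHuR libraries were below all 6 shControl ones, as for 2 of 16 genes in this list and 6.84% of all genes. The fourth was PPP1R15B, named here after its values were seen, a constitutive partner of the eIF2 phosphatase (-0.15). The kinases EIF2AK1, EIF2AK3 and EIF2AK4 did not pass.

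Of 23 tested genes among 24 further reported ATF4 targets, 15 differed between the lines over all treatments, 4 higher and 11 lower in shHuR, and FGF21 was too low to test. The share was 65.2%, against 29.9% of all genes (14.1% higher and 15.9% lower). This list and the other lists were chosen with earlier results of these data known, so such shares are a description and no independent support. The 3 with the smallest adjusted p were all lower. KLHL24, a ubiquitin ligase adaptor, was 53.1 ± 3.69 CPM in shControl and 34.5 ± 2.46 CPM in shHuR (SD, n = 6 each), a log2 fold change of -0.62 (edgeR adjusted p = 8.58e-07). VEGFA, an angiogenic growth factor, had -0.41 (edgeR adjusted p = 3.11e-06), and DDIT4, an inhibitor of mTORC1, had -0.57 (edgeR adjusted p = 1.94e-05). VEGFA and DDIT4 are also known to respond to low oxygen. The list's median was -0.13, against -0.04 for the members. In untreated cells 5 of these genes were lower and 2 higher, against 4.48% and 3.5% of all genes. With HNE 8 were lower and 0 higher (5.04% and 3.24% of all genes), and with H2O2 6 were lower and 0 higher (4.67% and 2.52%). Of 8 further cytosolic synthetases, 4 (50.0%, against 29.9% of all genes) passed over all treatments, 2 higher and 2 lower, with VARS at -0.24, FARSA at 0.15 and HARS at 0.16 named by smallest adjusted p. None of these 3 lists had a gene that passed for HNE or H2O2 with both lines together.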

How the data were processed

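Total RNA from 12 HEK293T cultures was depleted of ribosomal RNA, made into strand-specific libraries and sequenced as single-end 75-base reads, per the labels' protocols. The submitters' processing notes name cutadapt 1.8, Bowtie2 2.2, TopHat2 2.1, Cufflinks 2.2, Cuffnorm, Cuffdiff and GRCh37 (hg19). The annotation and the strand setting of the counting are not given in the sources used here, so genes overlapping on opposite strands cannot be told apart. The authors deposited estimated counts per gene, of which 2.25% were not whole (in 701 genes, no member among them), and FPKM values. The estimated counts were rounded. Samples were grouped by title. In tests of group means, P-values rest on the spread between the labelled biological replicates. In tests over all treatments or both lines, that spread also holds differences in response between the lines.

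Genes were kept with edgeR 4.0.16's filterByExpr (minimum count 10), scaled by TMM and tested with the quasi-likelihood F test, with Benjamini-Hochberg adjustment over all genes at 0.05. Pairwise and interaction tests used 6 group means (6 residual degrees of freedom); averages over treatments or lines had the other factor as a covariate. The SE is the log2 fold change divided by the root of F, and intervals are 2 SE to either side. Alternatives were DESeq2 1.42.0, other scalings and filters, limma 3.58.1 on log2(FPKM + 1) or log2(FPKM + 0.1), a replicate block, the compared groups alone, and each library left out. The procedure was tested on simulated data. Software was R 4.3.3 and Python 3.11.15.

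Members and lists were chosen with earlier results of these data known. All members are accounted for. Values per library are given for ATF4, DDIT3, ATF3, ASNS, CHAC1, TRIB3 and every member that passed in 2 or more comparisons, and for CEBPB, chosen after its values were seen. Of the other pathway genes that passed over all treatments, at most 3 per list are named, by adjusted p, with PPP1R15B added. Not every gene that passed within a single treatment is named. A marker result is not reported here.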

Additional observations from a re-analysis of the deposited data

How the results depend on the processing

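Of 27 calls of single members, 577 values under alternatives gave 514 with the same direction and call, 63 that lost the call and 0 that reversed. Over all treatments the calls of SLC38A2 and XPOT were lost under some alternatives, and the other 13 held in each one run. The count of members between the lines was 6 in untreated cells without a filter on low counts. With HNE it was 5 with DESeq2, 5 without a filter and 0 in the compared groups alone. With H2O2 it was 3 by limma on log2(FPKM + 1) without a filter and 3 in the compared groups alone. For HNE against untreated it was 1 (SLC3A2) with DESeq2 and 1 without a filter over both lines, and 2 (SLC3A2 and CEBPB) with DESeq2 and 2 without a filter in shControl. Without a filter it was 1 (SLC7A5) for H2O2 over both lines and 1 (CEBPB) for the HNE interaction. Leaving out each library gave 14 to 16 members over all treatments, 0 to 5 in untreated cells, 0 to 8 with HNE, 2 to 6 with H2O2, and 0 to 3 for HNE in shControl (3 without replicate 1 of that HNE group). It gave 0 to 0 in the other comparisons. Untreated cells gave 5 without either HNE-treated shControl library, and H2O2 gave 3 without either HNE-treated shHuR library.

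Same-numbered replicates were not paired: of 15 pairs of groups, 2 had a correlation of deviations over 0.1, from -0.107 to 0.129. With the replicate number as a block the counts were 15 over all treatments, 3 in untreated cells, 3 with HNE, 5 with H2O2 (CTH was lost) and 0 in the other comparisons. The log2 fold changes of ASNS, SLC3A2, AARS, MARS, DDIT3, TRIB3 and PPP1R15A over all treatments, none of which passed, took either sign under the alternatives. Counts of 7 to 40 per library limit NUPR1, and 3 to 13 limit GDF15. The cause of these differences was not tested.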
